A study of Bos taurus with 24 samples.

Results

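Mural granulosa cells of early antral cow follicles were compared with granulosa cells of secondary follicles, the stage before the antrum forms. The members are the 5 libraries labelled as mural cells of early antral follicles (early_MGC) and the 4 labelled as granulosa cells of secondary follicles (secondary_GC), 9 of 24 libraries in the series, with all genes of the deposited count table. The other libraries are cumulus cells of early antral follicles (early_CC, 5), used below where a difference between the compartments is tested, and cumulus and mural cells of late antral follicles (late_CC and late_MGC, 5 each). The series asks how the capacity of granulosa cells to extend projections to the oocyte changes as the follicle develops. Both groups are Bos taurus cells, and the labels name no genotype, treatment, age or breed. RNA was made into cDNA with the SMART-Seq v4 low-input kit and into libraries with Nextera XT. The labels do not say how many follicles or animals a library pools, so p-values measure the spread between these libraries, which may in part be technical.

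In a secondary follicle all granulosa cells surround the oocyte in a few layers, with no blood vessels among them. When the antrum opens, the cells divide into cumulus cells, which stay against the oocyte, and mural cells, which line the follicle wall next to the vessels of the theca. Cumulus cells use glycolysis to supply the oocyte with pyruvate, and mural cells become the main site of estradiol synthesis. Low oxygen stabilises hypoxia-inducible factors, which raise genes of glucose uptake, glycolysis, lactate export and vessel growth.

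Total counts per library ran from 10001810 to 30172169 in secondary_GC and from 8379801 to 21455169 in early_MGC. Genes of the mitochondrial genome took 5.15% to 19.32% of counts in secondary_GC and 12.48% to 36.53% in early_MGC. Library early_MGC 4 had both the lowest total and the highest mitochondrial share, and secondary_GC 2 had the lowest mean correlation with its own group (0.938). Levels are CPM (counts divided by the library size, times 1000000) on TMM-scaled library sizes unless plain CPM is stated, and marker sums are plain CPM. Summed over 10 granulosa markers, all present in the table, the libraries held 1262 to 2177 CPM in secondary_GC and 994 to 1398 in early_MGC. FSHR, the follicle-stimulating hormone receptor, was at 245 to 360 CPM in secondary_GC and 196 to 327 in early_MGC. FOXL2, a defining granulosa factor, was low in the counts of both groups, at 0.908 to 2.99 and 0 to 0.967 CPM. The 11 oocyte markers in the table summed to 23.1 to 35.5 CPM in secondary_GC and 9.79 to 15.8 in early_MGC, without overlap, with BMP15, DDX4 and FIGLA at 0. Most of that sum was OOEP (18.6 to 23.8 and 7.5 to 13.1 plain CPM). Theca and stroma markers (11 in the table) summed to 175 to 387 and 112 to 312 CPM. The theca enzyme CYP17A1 was at 0, but INSL3 of the same list was at 77.0 to 347 and 69.2 to 156 plain CPM. DCN was at 18.2 to 75.3 and 10.6 to 130 plain CPM, and LUM at 12.8 to 21.1 and 11.8 to 73.5. Endothelial markers (9) summed to 26.4 to 33.1 and 23.3 to 44.7 CPM, with CDH5 at 0. Most of the endothelial sum was FLT1 (22.2 to 28.6 and 20.1 to 37.6 plain CPM). Leukocyte markers (9) summed to 2.66 to 8.30 and 1.98 to 10.3 CPM, with CSF1R and MS4A1 at 0. Red blood cell markers (7) summed to at most 4.04 CPM, with HBB, ALAS2 and SLC4A1 among those at 0. In bulk libraries fewer cells of a type and less RNA per cell cannot be told apart.

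**Figure D1:**
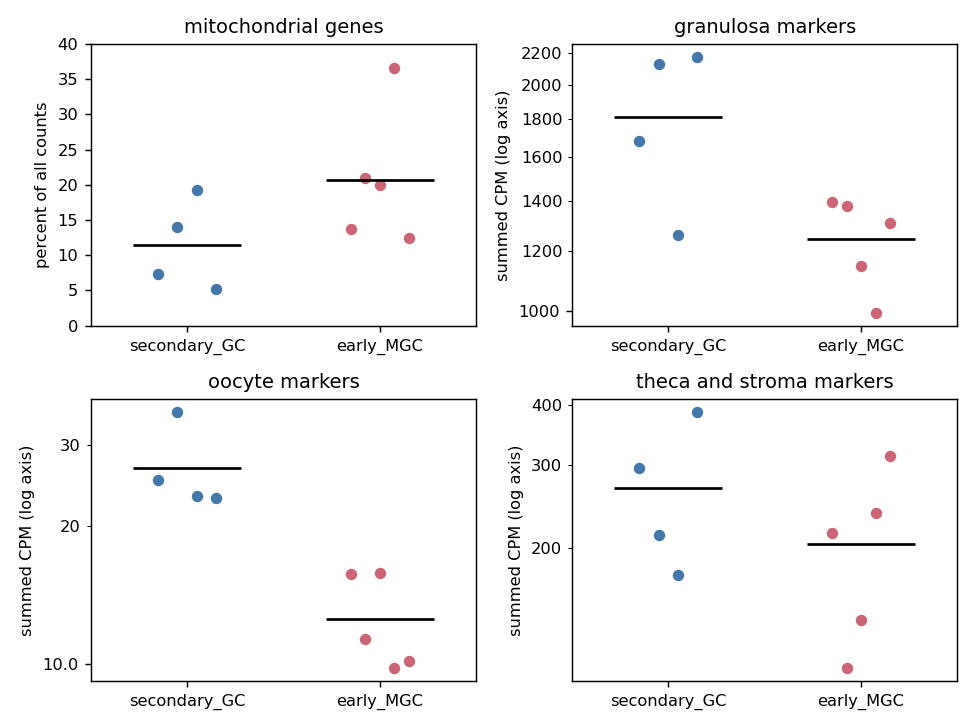
Share of counts on the mitochondrial genome (percent) and summed plain CPM of granulosa, oocyte, and theca and stroma markers (log axes). Each point is a library and each line a group mean. The oocyte marker sums of the groups do not overlap, and early_MGC 4 has the highest mitochondrial share, 36.53%.

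Of 14298 genes tested by edgeR's quasi-likelihood test, 1301 (9.10%) passed a Benjamini-Hochberg adjusted p of 0.05. In early_MGC 717 of them (5.01%) were higher and 584 (4.08%) were lower than in secondary_GC. These shares of all genes tested are the ones to set beside each list count below. At least 2-fold changes numbered 354 among the higher and 335 among the lower genes, and the median log2 fold change of all tested genes was 0.00. Genes that were lower had a median exon length of 2036 bases, against 3088 for those that were higher and 2342 for all tested. The count of calls leaned on single libraries: it was 516 without secondary_GC 4, 808 without secondary_GC 1, 850 without secondary_GC 2 and 861 without early_MGC 4. Without both secondary_GC 2 and early_MGC 4 it was 565, and without late_MGC 3 and late_CC 3, which stand apart from their groups and share in the estimate of the spread, it was 2320. Fold changes below are log2, early_MGC over secondary_GC, with the standard error (SE) after ±.

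**Figure D2:**
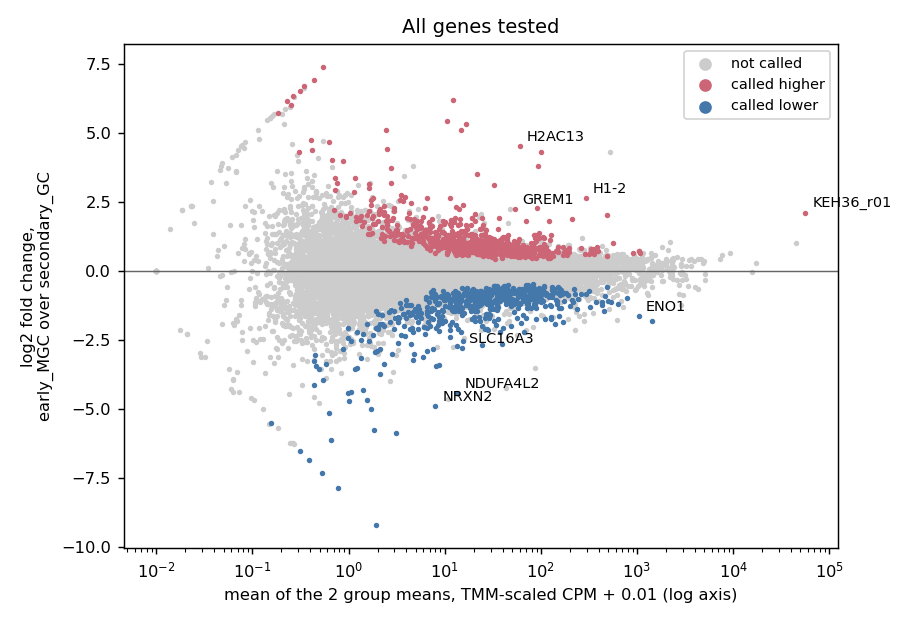
Log2 fold change of each gene tested against its mean level in the groups (TMM-scaled CPM + 0.01, log axis). Red and blue points are the 717 higher and 584 lower genes that passed the test, grey points the rest. Histones and the mitochondrial rRNA KEH36_r01 stand among the higher genes, and NDUFA4L2, NRXN2, SLC16A3 and ENO1 among the lower.

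Of 27 tested genes of glycolysis, lactate and pyruvate entry, 9 fell and none rose in early_MGC, where 4.08% of all genes tested were called lower. The other 18 did not pass. The list's median was -1.04, against 0.00 for all genes, and the 9 falls were all lost without secondary_GC 2 and early_MGC 4 together. They were GPI, PFKL, ALDOA, ALDOC, TPI1, PGK1, ENO1, PKM and SLC16A3. PFKL, the liver-type subunit of phosphofructokinase, the committing step of the pathway (ENSBTAG00000010658, chromosome 1, 144308711 to 144335975 in ARS-UCD1.2), was at 101, 169, 69.2 and 87.6 CPM in secondary_GC 1 to 4. It was at 49.1, 51.9, 31.7, 9.02 and 21.1 CPM in early_MGC 1 to 5 (-1.71 ± 0.40, adjusted p = 0.0106). Every early_MGC library lay below every secondary_GC library, and early_MGC 4 was the lowest. ENO1, or alpha enolase (ENSBTAG00000013411, chromosome 16, 44553028 to 44566771), was among the most abundant, at 1749, 1417, 746 and 2388 CPM in secondary_GC and 738, 638, 621, 230 and 293 CPM in early_MGC (-1.64 ± 0.42, adjusted p = 0.0161). Its groups also stayed apart, although secondary_GC 3 was close to early_MGC 1. SLC16A3 encodes MCT4, the transporter that exports lactate from glycolytic cells (ENSBTAG00000017461, chromosome 19, 50634317 to 50642204). Its level was 29.6, 34.6, 17 and 25.1 CPM in secondary_GC and 7.54, 4.5, 3.86, 1.46 and 1.38 CPM in early_MGC, 6.99-fold lower (-2.80 ± 0.70, adjusted p = 0.0164). The groups were well apart, although the call was lost with limma-voom (-3.05, adjusted p = 0.0728) and without secondary_GC 2 and early_MGC 4 together (-2.48, 0.0824).

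Other enzymes of the list fell by like amounts. GPI, which isomerises glucose 6-phosphate, fell from 284 ± 76.2 (SD, n = 4) to 118 ± 38 CPM (SD, n = 5), and ALDOA, the main aldolase, from 661 ± 215 to 244 ± 69.8 CPM. TPI1 (triose phosphate isomerase, -1.81 ± 0.52), PGK1 (phosphoglycerate kinase, -1.19 ± 0.33), ALDOC (-1.22 ± 0.37) and PKM (pyruvate kinase, -1.14 ± 0.32) also fell. Several members missed the threshold with large spread. LDHA, which turns pyruvate into lactate, was at 509, 276, 231 and 669 CPM in secondary_GC and 283, 160, 189, 51.0 and 29.8 in early_MGC, groups that overlap (-1.56 ± 0.63, adjusted p = 0.128). DESeq2 put LDHA just under the threshold (-1.60, adjusted p = 0.0499). GAPDH stood at -1.23 ± 0.41 (adjusted p = 0.0572), the platelet-type phosphofructokinase PFKP at -2.42 ± 0.80 (0.0604) and the glucose transporter SLC2A1 at -1.37 ± 0.47 (0.0708). LDHB, the lactate dehydrogenase subunit of oxidative tissues (-0.19 ± 0.19), PDHA1, which feeds pyruvate into the citric acid cycle (-0.18 ± 0.17), and the mitochondrial pyruvate carrier MPC2 (0.21 ± 0.21) lay near 0. The count depended on the libraries: it was 3 without secondary_GC 4, where ENO1 (-1.37, adjusted p = 0.0797) and ALDOA (-1.22, 0.0755) were among those lost, and 5 without secondary_GC 1, early_MGC 4 or early_MGC 5. Without both secondary_GC 2 and early_MGC 4, edgeR called 0 of 27, with 13 at an unadjusted p under 0.05, all lower, and a median of -0.90. On all libraries DESeq2 called 14 and limma-voom 8. Mitochondrial share moved with these genes, since early_MGC 4, highest in that share, was lowest in PFKL and ENO1, but early_MGC 5, with the lowest share of its group (12.48%), was second lowest. Its part in the result was not tested.

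Of 28 hypoxia-response genes outside glycolysis 4 fell and none rose, with a median of -0.38, beside 4.08% of all genes called lower. NDUFA4L2, a mitochondrial protein that lowers the activity of respiratory complex I (chromosome 5, 56205859 to 56208161), was at 12.9, 28, 12.6 and 49.4 CPM in secondary_GC. In early_MGC it was at 2.71, 0.546, 1.61, 1.17 and 0.0833 CPM, 21.5-fold lower (-4.43 ± 1.0, adjusted p = 0.0104). No library of one group reached the range of the other, but limma-voom did not call the gene (-5.03, adjusted p = 0.206). BNIP3, a receptor for the removal of mitochondria by autophagy (ENSBTAG00000017804, chromosome 26, 51221616 to 51226873), was at 73.7, 57.8, 29.3 and 112 CPM in secondary_GC and 15.1, 4.71, 16.2, 8.30 and 10.8 CPM in early_MGC (-2.63 ± 0.60, adjusted p = 0.010). VEGFA, the main growth factor of blood vessels (ENSBTAG00000005339, chromosome 23, 17281915 to 17297193), was at 47.6, 111, 46.2 and 41.5 CPM against 13.7, 25.9, 8.36, 14.3 and 5.08 CPM (-2.19 ± 0.50, adjusted p = 0.010). The groups were apart for both genes, and secondary_GC 2 was well above the rest for VEGFA, whose call was lost without secondary_GC 2 and early_MGC 4 together (-1.77, adjusted p = 0.0742). PLOD1, a collagen lysyl hydroxylase, fell by 1.1 ± 0.29, a call lost without secondary_GC 2 (-0.80, adjusted p = 0.0963).

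The factors that read oxygen did not pass the test in either direction. HIF1A, the regulated subunit of the hypoxia-inducible factor, was at a mean of 555 CPM in secondary_GC and 732 in early_MGC (0.40 ± 0.23, adjusted p = 0.282). EGLN1, a prolyl hydroxylase that marks that subunit for degradation, stood at 0.61 ± 0.25 (adjusted p = 0.130), and VHL, part of the ligase that destroys it, at -0.65 ± 0.43 (0.376). Other targets lay below 0 without passing, among them the mitophagy receptor BNIP3L (-1.02 ± 0.35, adjusted p = 0.0693), the collagen prolyl hydroxylase P4HA1 (-1.04 ± 0.34, 0.0583) and the vasodilator peptide ADM (-1.01 ± 0.55, 0.264). The hypoxia count was 9 without late_MGC 3 and late_CC 3, and 2 without secondary_GC 2 and early_MGC 4.

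In cumulus cells of the same stage these genes were not low. Mean NDUFA4L2 was 86.9 ± 48.6 CPM in early_CC (SD, n = 5), against 25.7 ± 17.3 in secondary_GC and 1.22 ± 1.01 in early_MGC, and the difference between early_MGC and early_CC was -6.18 ± 1.04 (adjusted p = 0.00099). For BNIP3 early_CC held 93.3 ± 21.6 CPM (-3.08 ± 0.59, adjusted p = 0.0020), for VEGFA 66.2 ± 34.6 CPM (-2.30 ± 0.49, 0.0039) and for SLC16A3 44.4 ± 9.89 CPM (-3.55 ± 0.69, 0.0025). In that comparison, which shares the early_MGC libraries with the main one, 913 genes (6.39%) were higher and 958 (6.70%) lower in early_MGC, a total of 1871 that was 1222 without early_MGC 5. There 14 of the 27 glycolysis genes and 7 of the 28 hypoxia genes were lower and none of either list was higher. In late antral follicles mean NDUFA4L2 stood at 561 CPM in late_CC and 0.821 in late_MGC, and mean VEGFA at 931 and 9.10 CPM, values that belong to other comparisons and were not tested here.

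**Figure D3:**
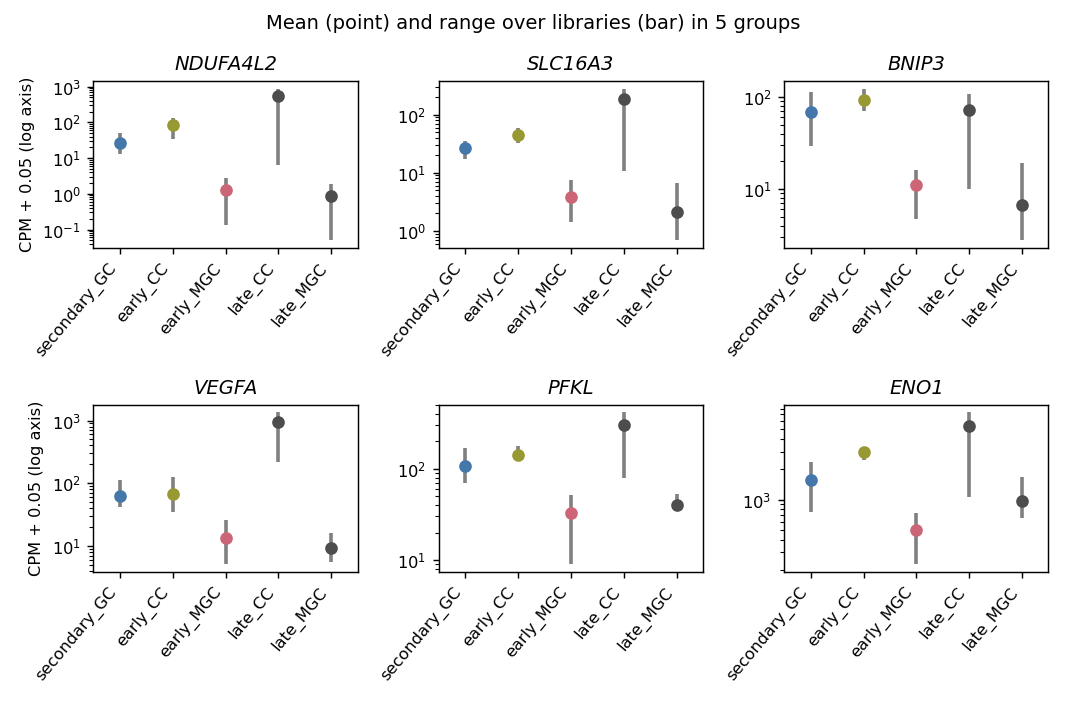
Mean (point) and range over libraries (bar) of 6 genes of glycolysis and the hypoxia response in the 5 groups, as TMM-scaled CPM + 0.05 on log axes. Each early_MGC mean lies below those of secondary_GC and early_CC, for NDUFA4L2 at 1.22 CPM against 25.7 and 86.9.

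Some messages of the respiratory chain rose. Of 81 nuclear-encoded subunits, 10 were higher and 1 lower, with a median of 0.28, beside 5.01% of all genes called higher. UQCRB, a small subunit of complex III, was at 291, 205, 321 and 267 CPM in secondary_GC and 615, 476, 551, 476 and 333 CPM in early_MGC (0.85 ± 0.20, adjusted p = 0.0104). Every early_MGC library was above every secondary_GC library. The complex I subunits NDUFB3 (0.83 ± 0.22), NDUFB1 (0.80 ± 0.22), NDUFC1 (0.70 ± 0.22) and NDUFA5 (0.68 ± 0.21) rose by like amounts, as did NDUFA4 (0.66 ± 0.20), now counted with complex IV. So did COX7C (0.72 ± 0.21) and COX7A2 (0.71 ± 0.21) of complex IV and ATP5MF (0.66 ± 0.21) of ATP synthase. The tenth call, COX7ALP1, is a copy related to COX7A2 at a mean of 15.1 CPM, and reads of related copies may be split between them. UQCRC1, a core subunit of complex III, fell by 0.78 ± 0.21, a call lost without secondary_GC 4 (-0.50, adjusted p = 0.165) or early_MGC 4 (-0.70, 0.0596). NDUFB3 lost its call without secondary_GC 2 (adjusted p = 0.0618) or 4 (0.0602). These are changes of less than 2-fold, and the count fell to 2 without secondary_GC 4, 3 without secondary_GC 1, secondary_GC 2 or early_MGC 1, 4 without early_MGC 2, and 5 without early_MGC 3 or 4. Against early_CC none of the 81 was higher and 6 were lower in early_MGC, a share near the 6.70% of all genes called lower there.

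Of 32 tested genes of the mitochondrial genome 4 were called higher and none lower, beside 5.01% of all genes called higher. The larger ribosomal RNA (KEH36_r01, ENSBTAG00000043570, mitochondrial genome 1453 to 3023) was at 8445, 20826, 46456 and 8536 CPM in secondary_GC and 51260, 105061, 89534, 162789 and 46904 CPM in early_MGC, 4.33-fold higher (2.11 ± 0.48, adjusted p = 0.0084). The groups met closely, with secondary_GC 3 just under early_MGC 5, and the call was lost with these groups fitted alone (2.13, adjusted p = 0.0755) and without secondary_GC 2 and early_MGC 4 together (1.79, 0.0591). The smaller ribosomal RNA stood at 1.03 ± 0.43 (adjusted p = 0.134). Of 13 messages of the mitochondrial genome, 12 lay above 0 with a median of 0.43, and 1 rose. The median was -0.11 without early_MGC 4, 0.27 without secondary_GC 1, 0.17 without secondary_GC 4, 0.72 without secondary_GC 2 and 0.82 without secondary_GC 3. The message that rose was ATP8, a small subunit of ATP synthase, at 123, 123, 428 and 101 CPM in secondary_GC and 447, 357, 751, 2111 and 251 CPM in early_MGC (2.02 ± 0.58, adjusted p = 0.0341). The groups overlapped, and without early_MGC 4 the value was 1.22 (adjusted p = 0.129). Its call was also lost without secondary_GC 1, 2 or 4 (adjusted p = 0.0951 to 0.119). The abundant messages COX1 (0.29 ± 0.39) and COX3 (-0.04 ± 0.41), core subunits of complex IV, gave small values. Against early_CC 10 of the 13 messages were higher in early_MGC and none lower, with a median of 1.55. There 6.39% of all genes were called higher, and the mitochondrial share of the early_CC libraries was 5.45% to 7.24%. The tRNA genes KEH36_t06 (3.80 ± 1.09, adjusted p = 0.0339) and KEH36_t15 (3.52 ± 0.90, 0.0195), each 69 bases long, were called higher on overlapping groups. Without early_MGC 4 they stood at 1.71 (adjusted p = 0.174) and 2.51 (0.0577), and both calls were also lost without secondary_GC 1 or secondary_GC 4, that of KEH36_t06 without secondary_GC 2 too. The shared direction of these RNAs went with the mitochondrial share of the libraries given above, of which they are a part.

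Among the 23 gene lists, replication-dependent histones had the highest median. Replication-dependent histones package new DNA in S phase, and most of their messages end in a stem-loop and not in the poly(A) tail from which this cDNA kit primes. Of 26 tested, 7 rose, none fell, and all 26 values lay above 0, with a median of 1.34, beside 5.01% of all genes called higher. H2AC13, an H2A gene (ENSBTAG00000046373, chromosome 23, 31001731 to 31002183), was at 5.05, 4.65, 7.27 and 3.08 CPM in secondary_GC and 128, 178, 124, 41.5 and 103 CPM in early_MGC, 23.1-fold higher (4.53 ± 0.50, adjusted p = 1.6e-05). The lowest early_MGC library, early_MGC 4, was still far above every secondary_GC library. H1-2, a linker histone (ENSBTAG00000011677, chromosome 23, 31876303 to 31878150), was at 54.4, 78.2, 136 and 56.6 CPM in secondary_GC and 432, 590, 601, 415 and 474 CPM in early_MGC (2.63 ± 0.34, adjusted p = 8.7e-05). H2BC18 (2.41 ± 0.45), H2BC12 (1.92 ± 0.44) and H1-4 (1.36 ± 0.33) rose too. H2BC3 (4.67 ± 0.84) and H2BC7 (3.0 ± 0.84) were called at mean levels of 1.2 and 2.94 CPM in early_MGC, with H2BC3 at 0 in 2 secondary_GC libraries. Many histone genes are near-identical copies, so reads may be assigned to the wrong copy. H2BC15 (0.02 ± 0.34), H3C13 (0.23 ± 0.84) and H4C4 (0.33 ± 0.37) were the members nearest 0. The count was 5 to 7 without any 1 library and 5 without both secondary_GC 2 and early_MGC 4. Against early_CC 5 of the 26 were higher and none lower, beside 6.39% of all genes called higher there. In that comparison H2AC13 differed by 3.72 ± 0.43 (adjusted p = 1.8e-05) and H1-2 by 2.77 ± 0.31 (9.4e-06).

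Cell cycle and ribosomal protein genes gave few calls, where 5.01% of all genes tested were called higher and 4.08% lower. Of 36 cell cycle genes none rose and 1 fell, CCNE1, the cyclin that opens S phase (-0.83 ± 0.26, adjusted p = 0.0458), with a list median of -0.05. That call depended on each of the libraries except early_MGC 1 (adjusted p = 0.0542 to 0.120). None of 76 cytosolic ribosomal protein genes passed in edgeR, DESeq2 or limma-voom, and 3 had an unadjusted p under 0.05 in each. Their median was 0.17, and from 0.09 to 0.28 without secondary_GC 4 or secondary_GC 2. Of 74 mitochondrial ribosomal protein genes 1 rose and 1 fell. MRPS2, of the small subunit, was at 60.7, 55.9, 45.5 and 81.3 CPM in secondary_GC and 34.9, 27.1, 31, 26.9 and 23.1 CPM in early_MGC, without overlap (-1.09 ± 0.22, adjusted p = 0.0038). MRPS36 (0.78 ± 0.23) lost its call without secondary_GC 1, 2 or 4 or early_MGC 1 or 3 (adjusted p = 0.0597 to 0.101). Of 29 splicing and RNA-processing genes, 3 rose and none fell, beside 5.01% of all genes called higher. PRPF4B, a kinase of the spliceosome, stood at 45.2, 67.1, 61.1 and 50.7 CPM in secondary_GC and 101, 145, 104, 112 and 140 CPM in early_MGC, without overlap (1.1 ± 0.20, adjusted p = 0.0015). SFPQ (0.71 ± 0.17), a splicing factor of paraspeckles, and HNRNPA2B1 (0.54 ± 0.17), a carrier protein of pre-mRNA, were the others. SFPQ lost its call without secondary_GC 4 (adjusted p = 0.053), and HNRNPA2B1 lost it without 7 of the 9 libraries, all but secondary_GC 1 and early_MGC 3 (0.0579 to 0.140).

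The hormone receptors and peptide hormones of granulosa cells gave few calls. Of 21 genes of receptors and granulosa identity, 1 rose and 3 fell, beside 5.01% of all genes called higher and 4.08% lower. NR2F2, an orphan nuclear receptor better known from theca and stroma, was at 4.30, 2.47, 5.87 and 0.854 CPM in secondary_GC and 7.48, 8.94, 8.17, 8.15 and 11.6 CPM in early_MGC, low but without overlap (1.41 ± 0.34, adjusted p = 0.0124). Its call was lost with these groups fitted alone (adjusted p = 0.0558) and without secondary_GC 2 and early_MGC 4 together (0.0581). GATA4, a transcription factor of gonadal somatic cells, was at 111, 216, 131 and 175 CPM and then at 74.2, 78.5, 89.3, 106 and 69.0 CPM (-0.93 ± 0.25, adjusted p = 0.0216). Its groups nearly met, and the call was lost without secondary_GC 2, secondary_GC 4 or early_MGC 5 (adjusted p = 0.0508 to 0.0872). RUNX1 (-1.46 ± 0.44), a factor of the early ovary, lost its call without secondary_GC 2, 3 or 4 or early_MGC 2, 3 or 4 (adjusted p = 0.0573 to 0.113). PGR (-1.0 ± 0.30), the progesterone receptor, lost it on leaving out each library in turn except for secondary_GC 2 and early_MGC 1 (0.0515 to 0.105).

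FSHR was at a mean of 286 ± 52.1 CPM in secondary_GC (SD, n = 4) and 267 ± 49.7 in early_MGC (SD, n = 5), a value of -0.10 ± 0.49 (adjusted p = 0.927). The receptor of luteinizing hormone, LHCGR, had 0 counts in the 4 secondary_GC libraries together, which allows up to 0.0402 plain CPM for counting error alone, and 5 counts in early_MGC. AMH, the hormone of small follicles, stood at -0.25 ± 0.61 (adjusted p = 0.844) and its receptor AMHR2 at -0.01 ± 0.43 (0.995). INHBA (0.25 ± 0.76), INHBB (-0.61 ± 0.53) and FST (0.35 ± 0.58), the activin subunits and their antagonist, did not pass either. INHA, the inhibin alpha subunit, was at 740, 900, 500 and 1070 CPM and 533, 505, 444, 364 and 336 CPM, ranges that overlap in secondary_GC 3 (-0.88 ± 0.59, adjusted p = 0.381). It was called without late_MGC 3 and late_CC 3 (-0.88, adjusted p = 0.0039) and when only these groups were fitted (-0.87, 0.0265).

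Of 14 steroidogenic genes 1 rose and 1 fell, beside 5.01% of all genes called higher and 4.08% lower. CYP11A1, which cuts the side chain of cholesterol and opens steroid synthesis (ENSBTAG00000006934, chromosome 21, 34328403 to 34342900), was at 55.5, 89.6, 43.4 and 28.7 CPM in secondary_GC and 15.4, 21.6, 15, 9.75 and 7.58 CPM in early_MGC (-1.96 ± 0.41, adjusted p = 0.0053). No library overlapped, and early_CC held 54.2 ± 19 CPM. Without secondary_GC 2 and early_MGC 4 together the CYP11A1 call was lost (-1.52, adjusted p = 0.0614). NR5A2, a nuclear receptor that drives steroid enzymes in granulosa cells, rose from 77.7 ± 40.9 to 169 ± 28.4 CPM (1.12 ± 0.30, adjusted p = 0.0214). Its groups overlapped through secondary_GC 2 at 138 CPM, and the call was lost without secondary_GC 1 (adjusted p = 0.0788) or 4 (0.0915). CYP19A1, the aromatase that makes estradiol, was at 5.71, 8.36, 5.80 and 4.76 CPM in secondary_GC and 16.8, 17.2, 19, 10.8 and 8.92 CPM in early_MGC. These groups did not overlap, and the gene missed the threshold in the fit of all 24 libraries (1.25 ± 0.71, adjusted p = 0.289). It was called without late_MGC 3 and late_CC 3 (1.26, adjusted p = 0.00079) and in the fit of these groups alone (1.26, 0.0212). STAR (-0.20 ± 0.84), which carries cholesterol into mitochondria, and HSD3B1 (-0.43 ± 0.47), which makes progesterone, did not pass.

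**Figure D4:**
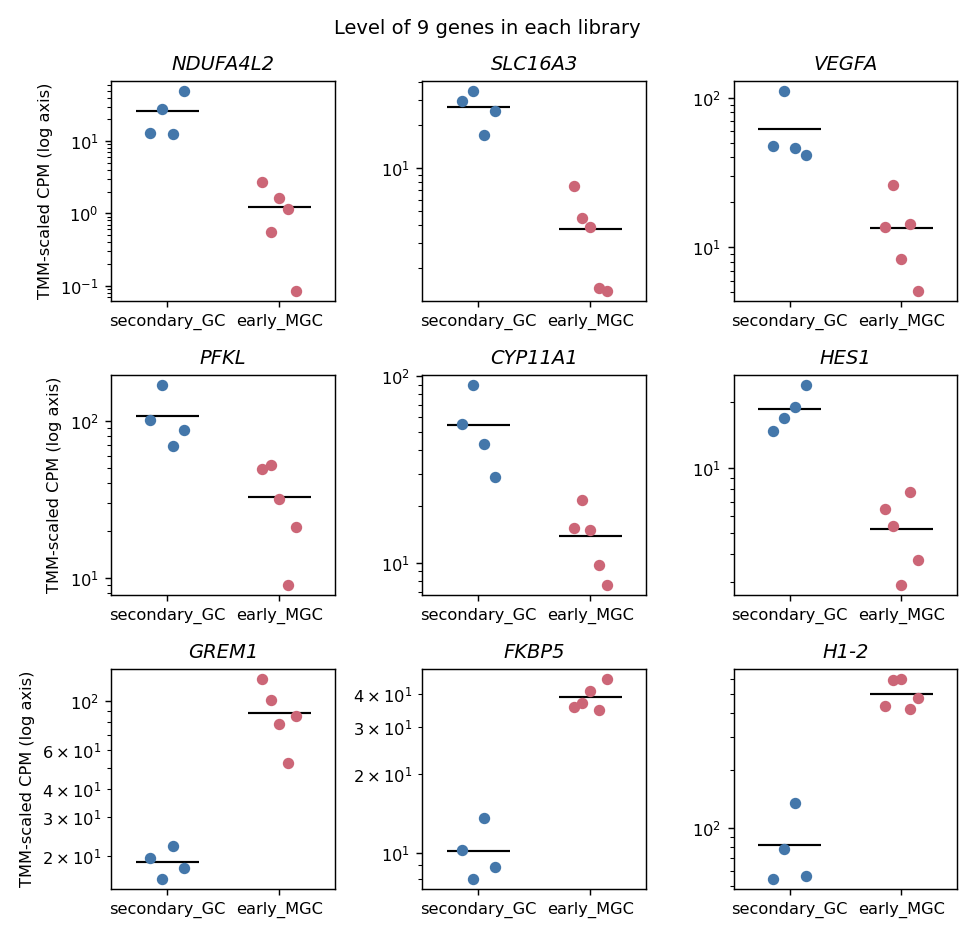
TMM-scaled CPM of 9 genes in each library (points, log axes), with the group mean as a line. For all 9 the groups do not overlap, with the first 6 genes lower and GREM1, FKBP5 and H1-2 higher in early_MGC.

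Among signalling genes, GREM1 rose. Its product gremlin binds and blocks bone morphogenetic proteins outside the cell (gene ENSBTAG00000050495 on chromosome 10, 29964364 to 29978686), and was at 19.5, 15.8, 22.1 and 17.6 CPM in secondary_GC and 126, 101, 78.5, 52.3 and 85.8 CPM in early_MGC, 4.73-fold higher (2.24 ± 0.25, adjusted p = 1.6e-05). No library overlapped. TGFBR3, or betaglycan, a co-receptor of inhibin and TGF-beta, was at 7.38, 7.79, 14 and 6.43 CPM and 18.6, 26, 24, 14.3 and 43.8 CPM (1.52 ± 0.41, adjusted p = 0.0235). Early_MGC 4 and secondary_GC 3 nearly met, and the threshold was missed with secondary_GC 1, 2 or 4 or early_MGC 5 left out (adjusted p = 0.0633 to 0.0921). They were the rises among 20 BMP and TGF-beta genes (median 0.33), of which none fell, beside 5.01% of all genes called higher. The BMP target genes ID1 (0.08 ± 0.57) and ID2 (-0.08 ± 0.34) did not pass.

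In the Notch pathway a ligand on one cell binds a receptor on its neighbour, which is then cleaved and turns on HES and HEY genes. Of 14 genes of the pathway tested, 4 fell and none rose, beside 4.08% of all genes called lower. Their median was -0.87, but -0.22 without secondary_GC 2, -0.28 with limma-voom and -0.55 with the letter of the column name as a replicate block. The ligand DLL4 was at 10.3, 21.3, 12.6 and 10.4 CPM in secondary_GC and 1.93, 4.44, 3.09, 6.41 and 3.75 CPM in early_MGC (-1.81 ± 0.51, adjusted p = 0.0269). The target HES1 (ENSBTAG00000000569, chromosome 1, 73362759 to 73365438) was at 14.7, 17, 18.9 and 24.1 CPM and 6.45, 5.39, 2.89, 7.71 and 3.79 CPM (-1.85 ± 0.45, adjusted p = 0.0130). Groups were apart for both. RFNG, a glycosyltransferase that tunes the receptor, fell by 1.72 ± 0.40, and the receptor NOTCH4 by 1.4 ± 0.41 at levels of 1.51 CPM in early_MGC. NOTCH2 lay the other way without passing (0.88 ± 0.34, adjusted p = 0.104). HES1 lost its call without secondary_GC 4 (adjusted p = 0.0521), as did RFNG (0.0795), DLL4 without secondary_GC 2 or early_MGC 1, 3 or 5 (0.0524 to 0.0876), and NOTCH4 without secondary_GC 1 or 2 or early_MGC 1, 2, 3 or 4 (0.0611 to 0.122). The count was 2 without secondary_GC 2, secondary_GC 4, early_MGC 1 or early_MGC 3. NOTCH4 and DLL4 are also expressed by endothelium, whose marker sums overlapped.

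In the Wnt list, 1 of 27 rose and 1 fell, beside 5.01% of all genes called higher and 4.08% lower. SFRP4, a secreted Wnt antagonist, was at 97.1, 44.8, 78.7 and 90.2 CPM in secondary_GC and 20.2, 28.5, 20.7, 8.44 and 19.4 CPM in early_MGC, without overlap (-1.99 ± 0.43, adjusted p = 0.0071). APC, part of the complex that destroys beta-catenin, rose by 0.70 ± 0.16. That call was lost without secondary_GC 4 (0.59, adjusted p = 0.0526) and after correction for gene length (0.39, 0.134). Of 12 genes of the insulin-like growth factor system, only IGFBP6, a binding protein with preference for IGF2, was called. It fell from 107, 87.5, 82.7 and 112 CPM to 22.2, 26.3, 31.4, 27.1 and 25.8 CPM, tight and well separated groups (-1.87 ± 0.51, adjusted p = 0.0267). Its call was still lost without secondary_GC 1 or 4 or early_MGC 1, 2, 4 or 5 (adjusted p = 0.0502 to 0.0767).

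Genes of amino acid supply and the unfolded protein response were lower in 5 of 24 cases and higher in 1, with a median of -0.53 that was -0.30 without secondary_GC 4. Of all genes tested 4.08% were called lower and 5.01% higher. SLC3A2, the heavy chain that amino acid exchangers need (ENSBTAG00000013240), was at 33.6, 43.0, 31 and 62.4 CPM in secondary_GC and 15.7, 17.8, 16.5, 13.7 and 19 CPM in early_MGC (-1.36 ± 0.19, adjusted p = 0.00022). The groups were apart, and the call held without any 1 library. XBP1, a transcription factor of the unfolded protein response, was at 135, 178, 95.2 and 387 CPM and 64.3, 43.1, 55.0, 29 and 104 CPM, with early_MGC 5 above secondary_GC 3 (-1.75 ± 0.36, adjusted p = 0.0047). SESN2, a stress-induced inhibitor of growth signalling, fell by 0.97 ± 0.24, CHAC1, which breaks down glutathione, by 1.43 ± 0.42, and PHGDH, the first enzyme of serine synthesis, by 1.07 ± 0.32. SESN2 lost its call without secondary_GC 2 (adjusted p = 0.0723). CHAC1 and PHGDH were the falls lost without secondary_GC 1, secondary_GC 4, early_MGC 1 or early_MGC 4. The glutamine transporter SLC38A1 rose from 11 ± 2.61 to 21.5 ± 4.5 CPM (0.98 ± 0.20, adjusted p = 0.0038). ATF4, which drives much of this list, stood at -0.59 ± 0.19 (adjusted p = 0.0571). The count of falls was 3 without secondary_GC 1, 2 or 4 or early_MGC 1 or 4, and 2 without both secondary_GC 2 and early_MGC 4.

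Of 43 proteasome genes 5 fell and none rose, beside 4.08% of all genes called lower. The list's median was -0.17, but -0.05 without early_MGC 4, -0.07 without secondary_GC 4 and -0.11 without early_MGC 2. The 5 falls were PSMD13 (-1.12 ± 0.35), PSMB8 (-1.07 ± 0.28), PSMF1 (-0.93 ± 0.23), PSMC1 (-0.58 ± 0.18) and PSMD3 (-0.54 ± 0.16). Without secondary_GC 4 all 5 lost the call, with PSMB8, PSMF1, PSMC1 and PSMD3 at adjusted p = 0.0629, 0.0787, 0.251 and 0.165. PSMB8 lost it also without secondary_GC 1, PSMD3 without secondary_GC 2 or early_MGC 1, 4 or 5, and PSMC1 without secondary_GC 1 or early_MGC 1, 2, 4 or 5. Of 25 cholesterol genes 2 fell, SREBF1, a regulator of lipid synthesis (-1.23 ± 0.33), and MVK, or mevalonate kinase (-1.33 ± 0.38). Their calls were lost without secondary_GC 2 (adjusted p = 0.145 and 0.107), early_MGC 5 (0.0553 and 0.0666) and, for SREBF1, early_MGC 1 or, for MVK, secondary_GC 1, secondary_GC 4 or early_MGC 4.

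Of 35 immediate early and heat shock genes 1 rose and 1 fell, beside 5.01% of all genes called higher and 4.08% lower. HSPH1, a co-chaperone of HSP70, was at 74.3, 30.8, 61.3 and 48.0 CPM in secondary_GC and 325, 112, 225, 75.1 and 215 CPM in early_MGC (1.83 ± 0.37, adjusted p = 0.0041). The groups nearly touched, between secondary_GC 1 and early_MGC 4. IER3, an early response gene, was at 39.5, 98.0, 68.3 and 233 CPM and 14.5, 31.9, 13.2, 24.2 and 34.9 CPM (-2.21 ± 0.63, adjusted p = 0.0329). It missed the threshold when secondary_GC 2, secondary_GC 4 or early_MGC 1, 3 or 4 was left out (adjusted p = 0.0562 to 0.181). FOS (-0.49 ± 0.71), JUN (0.15 ± 0.42) and EGR1 (-0.26 ± 1.0), early genes that handling of cells can raise, did not pass.

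Genes of the projections to the oocyte were mixed. Of 38 filopodia and actin genes, 3 rose and 2 fell, with a median of 0.01, beside 5.01% of all genes called higher and 4.08% lower. RDX, or radixin, which ties actin to the membrane, rose from 45.0 ± 8.14 to 74.2 ± 7.47 CPM (0.72 ± 0.15, adjusted p = 0.0044), and its groups did not overlap. ARPC3 (1.15 ± 0.24) and ACTR2 (0.82) of the actin-branching Arp2/3 complex rose, and ARPC1A (-0.71 ± 0.17) of the same complex fell on overlapping groups. The ARPC1A call was lost with these groups fitted alone (adjusted p = 0.0507) and without secondary_GC 2 and early_MGC 4 together (0.0786). CFL1, or cofilin, which severs actin, was at 896, 463, 437 and 1112 CPM and 380, 230, 460, 306 and 284 CPM (-1.13 ± 0.26, adjusted p = 0.0090). It overlapped between the groups and lost its call without secondary_GC 4 (-0.85, adjusted p = 0.0647). MYO10, the motor of filopodium tips, was at 39.0, 81.8, 51.2 and 51.6 CPM and 33.5, 51.7, 42.2, 52.3 and 35.9 CPM, overlapping (-0.37 ± 0.26, adjusted p = 0.403). FSCN1, or fascin, which bundles filopodial actin, was at 8.26, 11.9, 13.6 and 9.51 CPM and 1.87, 5.39, 2.25, 6.11 and 4.96 CPM. Its groups did not overlap, yet it passed only without late_MGC 3 and late_CC 3 (-1.4, adjusted p = 0.0264) or with these groups alone (-1.4, 0.0297), and stood at -1.4 ± 0.93 (0.372) in the fit of all libraries.

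Of 23 junction genes 1 rose and 1 fell, beside 5.01% of all genes called higher and 4.08% lower. NECTIN3, a cell adhesion receptor, was at 10.7, 6.17, 8.73 and 6.13 CPM in secondary_GC and 15.5, 16.2, 13, 28.7 and 26.7 CPM in early_MGC (1.33 ± 0.25, adjusted p = 0.0023), without overlap. JUP, or plakoglobin, fell by 0.74 ± 0.23, a call that needed each library except secondary_GC 3 and early_MGC 2 (adjusted p = 0.0611 to 0.128). GJA1, the main connexin between granulosa cells, stood at 0.59 ± 0.30 (adjusted p = 0.234), and GJA4, the connexin best known from the oocyte side, at -1.43 ± 0.98 (0.390). GJA4 was called without late_MGC 3 and late_CC 3 (-1.43, adjusted p = 0.0334) and with these groups alone (-1.43, 0.0361). KITLG, the growth factor by which granulosa cells act on the oocyte, was at 5.71, 5.89, 14.5 and 8.75 CPM and 15.4, 18.4, 24.2, 15.9 and 29.5 CPM, without overlap (1.25 ± 0.61, adjusted p = 0.208). It was called with these groups alone (1.25, adjusted p = 0.0257) and without late_MGC 3 and late_CC 3 (1.25, 0.0087). None of 14 genes of oocyte dialogue and cumulus function passed in edgeR, DESeq2 or limma-voom, with 2, 4 and 4 at an unadjusted p under 0.05.

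Matrix genes had 3 falls and no rise among 30 (median -0.48, and -0.25 without secondary_GC 2), beside 4.08% of all genes called lower. TIMP2 and TIMP3, inhibitors of matrix proteases, fell from 516 ± 182 to 235 ± 37.1 CPM and from 344 ± 55.1 to 132 ± 35.5 CPM. Neither pair of groups overlapped, but each call was lost without any 1 of 6 libraries (adjusted p = 0.058 to 0.174 and 0.050 to 0.0834). Those were secondary_GC 1 and 4 and early_MGC 1, 2 and 4, with early_MGC 3 for TIMP2 and secondary_GC 2 for TIMP3. COL1A1, a fibrillar collagen and a marker of stroma, rested on secondary_GC 2: it was at 1.05, 37.6, 6.43 and 1.19 CPM and 2.0, 1.84, 2.25, 0.728 and 0.708 CPM. Its value was -2.89 ± 0.77 with that library and -0.88 (adjusted p = 0.380) without it. The call was lost without early_MGC 4 (adjusted p = 0.0522) or 5 (0.0527) as well.

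**Figure D5:**
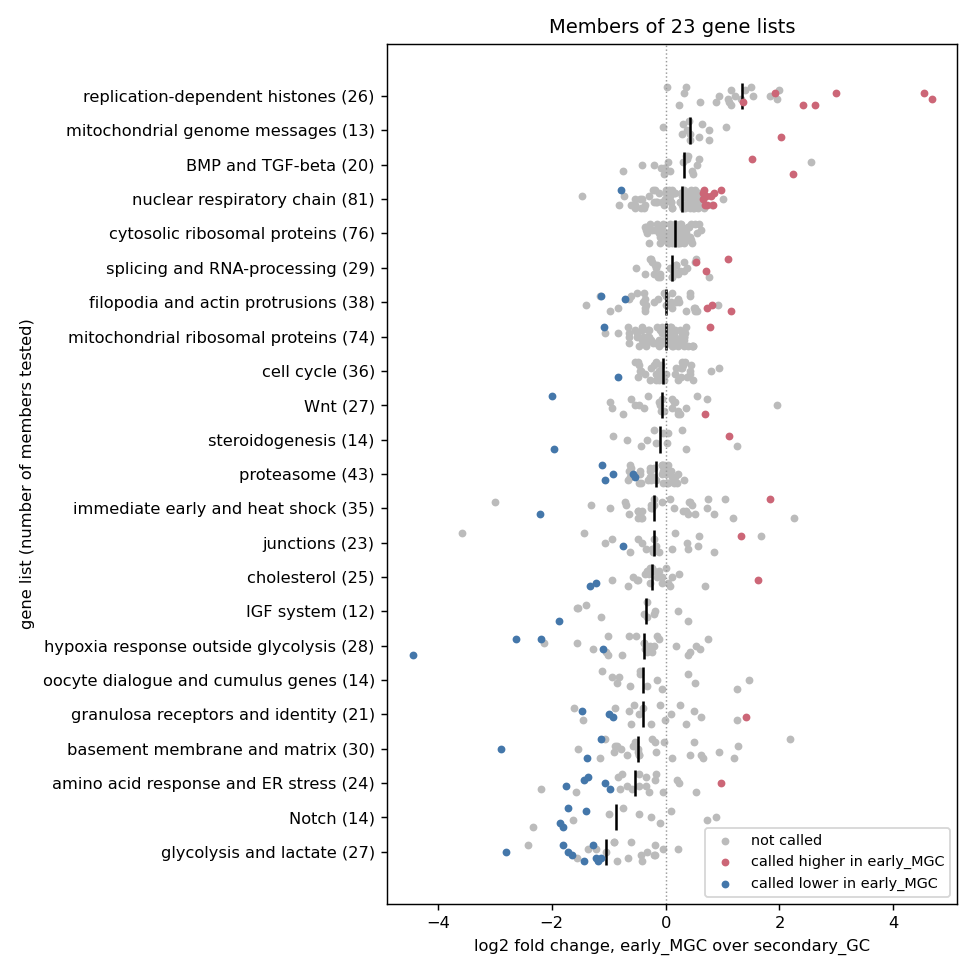
Log2 fold change of each tested member of 23 gene lists, ordered by the list median (black bar). Red and blue points passed the test. Glycolysis has the lowest median, -1.04, and replication-dependent histones the highest, 1.34.

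Of the other large rises, FKBP5, a co-chaperone that is a classic target of glucocorticoid and progesterone receptors, was at 10.2, 7.98, 13.6 and 8.84 CPM in secondary_GC and 35.6, 37.0, 41.2, 34.9 and 45.8 CPM in early_MGC (1.94 ± 0.27, adjusted p = 0.00016). FAM98B, a member of the tRNA ligase complex, was at 2.11, 2.85, 4.33 and 3.32 CPM and 20.4, 22.5, 21, 11.9 and 22.4 CPM (2.64 ± 0.28, adjusted p = 1.4e-05). Both were without overlap. MCCC2, a subunit of the carboxylase that breaks down leucine, rose from 1.82 ± 0.332 to 11.3 ± 3.23 CPM (2.64 ± 0.51, adjusted p = 0.0027). MSL2, a ubiquitin ligase of a histone acetyltransferase complex (2.05 ± 0.36), and TAF15, an RNA-binding protein (1.90 ± 0.27), also rose without overlap. SHOC1, a meiotic recombination gene, was called higher (2.23 ± 0.67) on overlapping groups, and missed the threshold when secondary_GC 1, 2 or 3 or early_MGC 4 or 5 was left out (adjusted p = 0.0616 to 0.105).

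Of the other large falls, NRXN2, a neurexin of cell surfaces, was at 9.97, 37.9, 4.54 and 8.63 CPM in secondary_GC and 0.902, 0.273, 0.386, 0.873 and 0.250 CPM in early_MGC (-4.91 ± 0.81, adjusted p = 0.0011). The groups were far apart, and limma-voom did not call it (adjusted p = 0.0904). PODXL2, a sialomucin (-2.30 ± 0.47), and CORO1B, an actin regulator (-2.39 ± 0.53), fell without overlap and kept the call without any 1 library. F3, or tissue factor, which starts coagulation, fell by 2.18 ± 0.53 and lost the call without secondary_GC 4 (-1.62, adjusted p = 0.0872). DUSP5, a phosphatase of ERK, was at 8.69, 10.5, 8.87 and 64.6 CPM and 1.93, 3.34, 3.21, 5.09 and 4.42 CPM (-2.70 ± 0.64, adjusted p = 0.0110), and stood at -1.38 (0.20) without secondary_GC 4. CTSA, a lysosomal protease, behaved alike, at -2.52 ± 0.58 with secondary_GC 4 and -1.37 (adjusted p = 0.115) without it. MAN1C1, a Golgi mannosidase, stood at -3.40 ± 0.57 and, without secondary_GC 2, at -1.99 (adjusted p = 0.0058). ITPR3, a calcium channel of the endoplasmic reticulum (-2.22 ± 0.58), lost the call without secondary_GC 2 or 4 (adjusted p = 0.0513 and 0.0527). LY6E, a membrane-anchored surface protein (-3.12 ± 0.90), lost it without secondary_GC 1 or 4 or early_MGC 2, 3, 4 or 5 (0.0626 to 0.159).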

How the data were processed

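The authors deposited counts of reads per gene, made per the file headers with featureCounts 2.0.0 on exons of an Ensembl annotation of ARS-UCD1.2, with no option for strand, so overlapping and antisense genes share reads. The tools fastp 0.20.0, HISAT2 2.1.0 and SAMtools 1.10 and the build bosTau9 are named in the submitters' processing notes. Symbols came by position from RefSeq genes of ARS-UCD2.0 (overlap of at least 0.5 of the union), which named 10252 of 12219 genes at 1 CPM or more. No coordinate of that build is printed.

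Counts were tested with edgeR 4.0.16 in R 4.3.3 (TMM scaling, filterByExpr, robust quasi-likelihood, all 24 libraries in 1 fit by group), and genes were called at an adjusted p under 0.05. limma 3.58.1 and DESeq2 1.42.0 served as alternatives. The biological coefficient of variation was 42.4%. On simulated counts for this comparison (200 changed genes among those tested) the script recovered 23% of 2-fold and 85% of 4-fold changes, and 8.5% of its 118 calls were false. Columns named only by group carry the table's order as number (secondary_GC 1 to 4). The comparison, the 23 gene lists and the naming rule (the 15 largest rises and falls at a mean of at least 10 CPM in the higher group, up to 4 called members of a list, and 25 genes by name) were chosen with earlier results of these data known. Some genes of the lists are not reported here by name or value.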

Additional observations from a re-analysis of the deposited data

Results flagged for a closer look

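In 15 cases the highest or lowest library of a group lay far from the nearest other, by a rule that chance meets in about 1 in 20 groups. Many genes were looked at, so that rate alone would give some such cases. In early_MGC 4, KEH36_t06 was at 703.5 CPM (others at most 96.2), KEH36_t15 at 118.3 (31.8), ATP8 at 2111 (751) and FAM98B at 11.94 (others at least 20.4). In early_MGC 5, MSL2 was at 57.25 CPM (others at most 31) and NOTCH4 at 2.167 (1.46). In secondary_GC 2, NRXN2 was at 37.89 CPM (others at most 9.97), MAN1C1 at 45.68 (8.73), COL1A1 at 37.6 (6.43), VEGFA at 111 (47.6) and PLOD1 at 315.4 (175). In secondary_GC 3, ATP8 was at 427.5 CPM (others at most 123), GJA1 at 583.5 (358) and ARPC1A at 47.85 (others at least 76.8). In secondary_GC 4, DUSP5 was at 64.62 CPM (others at most 10.5).

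Among the 15 largest rises and 15 largest falls, the change from secondary_GC to early_MGC differed from that to early_CC for 23 genes, by edgeR's test of early_MGC against early_CC. The falls of MAN1C1, LY6E, COL1A1, DUSP5, ITPR3, IER3 and F3 did not differ by that test (adjusted p = 0.0589 to 0.946). Of all genes tested 6.39% were higher and 6.70% lower in early_MGC there. The 23 cannot be weighed against those shares, since they were picked by their change in early_MGC, whose libraries enter both tests. On the log2 scale early_MGC was higher by 4.68 for KEH36_t15, 3.72 for H2AC13, 3.20 for KEH36_t06, 3.03 for ATP8, 2.92 for SHOC1, 2.88 for KEH36_r01, 2.79 for MSL2 and 2.77 for H1-2. It was also higher by 2.28 for FAM98B, 2.18 for TAF15, 1.68 for MCCC2, 1.62 for H2BC12, 1.47 for H2BC18, 1.29 for FKBP5 and 0.66 for GREM1. The values were -6.18 for NDUFA4L2, -3.55 for SLC16A3, -3.44 for NRXN2, -3.24 for PODXL2, -3.08 for BNIP3, -2.30 for VEGFA, -2.19 for CORO1B and -2.15 for CTSA.

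A column of undetermined reads held 41567882 counts, 8.3% of the table. No sample owns these reads, and they were left out of the fits.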

How the results depend on the processing

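The naming rule given above picked genes of which none called in the main fit or in an alternative changed direction between these fits. That covers the alternatives other than leaving out 1 library, and changes of direction in genes called in neither fit were not counted. Of the 80 calls among the genes so picked, 38 held without any 1 library and 42 were lost without at least 1 (adjusted p up to 0.380). Further list members named in the text, such as TPI1, PGK1, ALDOC, PKM, NDUFB1 and COX7C, were not in that tally. For these only the list counts under each setting are given. Without any 1 library of the groups, total calls ranged from 516 to 1524, higher from 299 to 782, lower from 217 to 742, and calls against early_CC from 1222 to 1761. The counts called lower ranged from 3 to 11 for glycolysis, 2 to 4 for Notch and 3 to 7 for the amino acid response, and the count called higher from 2 to 12 for the respiratory chain. With these groups fitted alone, 463 genes were higher, 9 hypoxia genes were lower, and calls against early_CC numbered 3035. With DESeq2, 932 genes were lower, 14 of them in glycolysis and 8 in the amino acid response. Without late_MGC 3 and late_CC 3, an alternative chosen after seeing the data, 2320 genes were called, 1141 higher and 1179 lower, and 3034 against early_CC. Glycolysis then had 15 lower, hypoxia 9 lower, histones 13 higher and the respiratory chain 17 higher. Without secondary_GC 2 and early_MGC 4, also chosen after seeing the data, 565 genes were called, 320 higher and 245 lower. Glycolysis then had 0 lower, hypoxia 2, Notch 2 and the amino acid response 2, and the respiratory chain 2 higher. With no filter on low counts 5 respiratory chain genes were higher, and with a mean of at least 10 CPM 1 Notch gene was lower, of the 3 then tested. The cause was not tested, except that fewer libraries or genes entered where some were left out. The letter in the last part of each column name (A to E) was also used as a replicate block, added after seeing the data. With it 1437 genes were called, and of the 80 calls those of SHOC1 (adjusted p = 0.0556), LY6E (0.0568), COL1A1 (0.0912) and PSMC1 (0.056) were lost. By that letter secondary_GC 1 to 4 went with early_MGC 1, 3, 4 and 5. The labels do not say that the letter pairs samples. Deviations of same-letter libraries correlated at -0.29 to 0.329, over 0.1 in 3 of 4 pairs. Simulated recovery of 2-fold changes was 23%, on counts with far fewer changed genes than the 1301 called in the data. The adjusted p is stricter where fewer genes change, so this share does not measure how many changes were missed in the data. Changes of less than 2-fold were among the calls, such as RDX (0.72) and APC (0.70), and others may have been missed.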
